A study of Mus musculus with 30 samples.

Results

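The difference between ob/ob and wild-type glomeruli was compared between 4 and 16 weeks of age, in separate groups of animals. Glomeruli, the capillary tufts that filter blood in the kidney, were sieved from the kidneys of female mice of the BTBR strain. Their RNA was hybridised to Affymetrix arrays, and each array is taken here as 1 animal. The 14 arrays used here are those labelled ob or WT at 4 or 16 weeks, of 30 arrays in all: 3 ob/ob and 3 wild-type animals at 4 weeks, and 4 ob/ob and 4 wild-type animals at 16 weeks. Mice called ob/ob carry 2 copies of the leptin mutation on the BTBR background, and mice called wild type (WT) are labelled as BTBR wild type. The mutation is present in every cell and from birth, so it is not a change made in the glomerulus, and the labels give no treatment, body weight, glucose or albumin value. The 8-week and 24-week arrays lay outside the 14-array fit and entered it only in alternative fits; by themselves the 8-week arrays served to choose genes, and both ages to look genes up in other animals.

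Leptin is the fat-cell hormone that restrains food intake, and mice without it overeat, become obese and resist insulin. On the BTBR background the islets fail to compensate and lasting high blood glucose follows. Diabetic glomeruli are known for swelling of the mesangium, the contractile cells and matrix between the capillaries, for thick basement membranes and for loss of podocytes, the cells that cover the capillaries.

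In this text a difference is ob/ob minus wild type at 1 age, in log2 units as deposited, and the increment is the 16-week difference minus the 4-week difference. A positive increment means that ob/ob moved upwards against wild type with age. Some deposited values exceed what 16 bits of scanner depth allow (maximum 19.93; 1.396% of tested values above 16), so an unknown step widened the scale and no linear fold is quoted. Values after ± are standard errors of the linear model, and n is the 14 arrays unless stated. The number of arrays limits precision: the median standard error of an increment was 0.19, with a median 95% half-width of 0.41.

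The preparations held tubule as well as glomerulus. The podocyte list of 28 genes, of which 24 were measured, averaged between 10.09 and 12.09 per array, and its defining gene Nphs1 (nephrin, of the slit diaphragm) lay between 9.70 and 12.26. Slc34a1, the phosphate carrier of the proximal tubule, lay between 18.79 and 19.51. Intron controls, which mark background, had array medians of 5.84 to 6.35. Separation of exon from intron controls, a measure of array quality in which 1 is perfect, ran from 0.826 to 0.873, and its increment was 0.00245 (two-sided exact permutation test of genotype within age, p = 0.884, 1400 regroupings). Wild-type replicate 2 and ob/ob replicate 4 of 16 weeks stood apart on glomerular genes, with podocyte list means of 12.09 and 11.34 against 10.406 to 11.002 in the other 6 arrays of that age. Lep itself lay between 4.88 and 5.45 in all 14 arrays, below the intron controls, so it does not check the genotype.

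No gene passed the test for an increment at an adjusted p of 0.05 (limma, Benjamini-Hochberg over 22950 genes; 0 called, 0%). The smallest adjusted p was 0.0969, for Slc25a25, a calcium-regulated carrier of ATP-magnesium and phosphate in the inner mitochondrial membrane. At an unadjusted p under 0.05 there were 1076 genes, or 4.69% of those tested, with 500 increments above 0 (2.18%) and 576 below 0 (2.51%). In size, 222 genes had an increment of at least 1 unit in either direction and 20 of at least 2. The median increment of all genes was -0.02. Array quality weights called 4 genes. Leaving out single arrays called 0 to 4: 4 without wild-type replicate 1 of 4 weeks, 2 without ob/ob replicate 1 of 16 weeks, 2 without ob/ob replicate 3 of 16 weeks and 1 without wild-type replicate 2 of 16 weeks.

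At 16 weeks 391 genes differed between genotypes (1.70%), 193 higher in ob/ob (0.841%) and 198 lower (0.863%). At 4 weeks 0 genes passed (limma, 0%), and 1137 had an unadjusted p under 0.05 (4.95%; 2.33% higher and 2.63% lower). Passing at 16 weeks and not at 4 does not show that the ages differ, since that is what the increment tests. The count at 16 weeks became 718 without wild-type replicate 2, 188 without ob/ob replicate 3, and 174 and 156 without wild-type replicates 3 and 4 of that age. Of the 193 genes higher at 16 weeks, 172 (89.1%) also had a difference above 0 at 4 weeks, against 52.0% of all genes. Of the 198 lower, 182 (91.9%) had one below 0, against 48.0% of all genes. Median differences of the called genes were 0.30 at 4 weeks and 0.96 at 16 weeks for the higher genes, and -0.40 and -0.86 for the lower genes. These genes were chosen by their size at 16 weeks, so the larger value at that age follows in part from the choice.

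**Figure D1:**
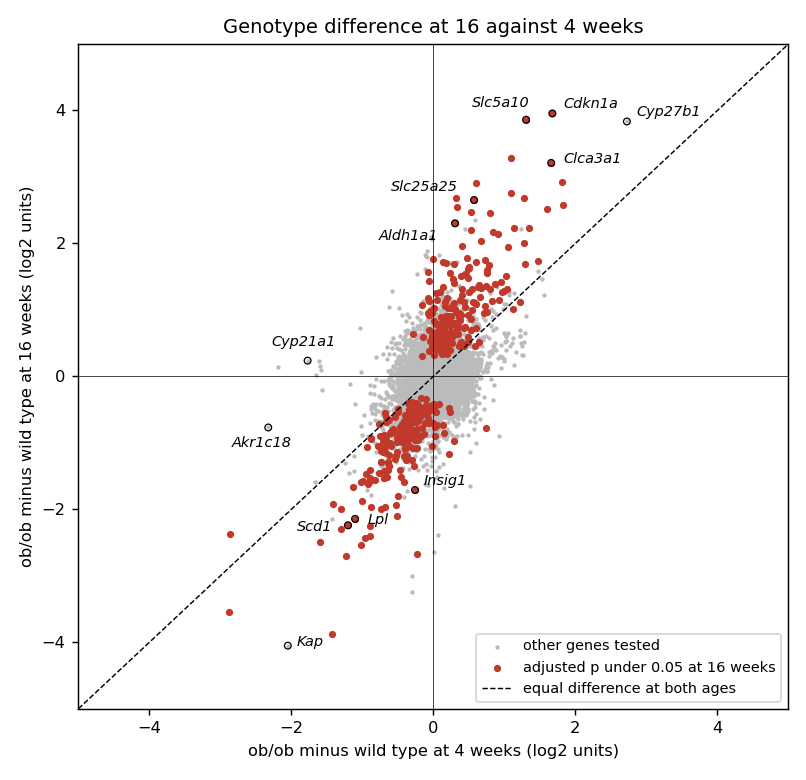
Genotype difference of every tested gene at 4 weeks (horizontal) and at 16 weeks (vertical), both ob/ob minus wild type in log2 units as deposited; red points passed adjusted p 0.05 at 16 weeks, grey points did not, and the dashed line marks equal differences. Cdkn1a, at 1.68 and 3.96, and Slc25a25, at 0.57 and 2.65, lie above the line, whereas Cyp21a1 lies above it because its 4-week difference is -1.77.

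A choice of genes from other animals avoids that selection. In the 8-week arrays alone (4 ob/ob, 4 wild type), 152 genes were higher and 428 lower in ob/ob (limma adjusted p under 0.05; 580 in all, 2.53% of 22950, with 0.662% higher and 1.86% lower). Of the 152 higher genes, 143 (94.1%) had a difference above 0 at 4 weeks and 141 (92.8%) at 16 weeks, with medians of 0.26 and 0.45. The 428 lower genes were below 0 in 352 cases (82.2%) at 4 weeks and in 387 (90.4%) at 16 weeks, with medians of -0.27 and -0.45. Among all genes 52.0% were above 0 at 4 weeks and 47.5% at 16 weeks, and 48.0% and 52.5% were below 0. Increments above 0 were seen for 111 of the 152 higher genes (73.0%, against 45.3% of all genes), and increments below 0 for 329 of the 428 lower genes (76.9%, against 54.7%). At an unadjusted p under 0.05 the increment pointed away from 0 in the 8-week direction for 31 higher genes and against it for 2, and for 31 and 4 of the lower genes. These genes are not independent of each other and no test was made over them. Leaving out any 1 of the 4 ob/ob arrays, or wild-type replicate 1 or 4, left 212 to 355 genes called at 8 weeks, and leaving out wild-type replicate 3 gave 755. The 24-week arrays alone called 2182 genes (9.51%; 1.62% higher and 7.89% lower) and were not used to choose genes. Without ob/ob replicates 1, 2 and 4, whose exon-intron separation was 0.762 to 0.783, they called 37, which rests on 1 ob/ob animal that is assumed to vary like the wild type.

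**Figure D2:**
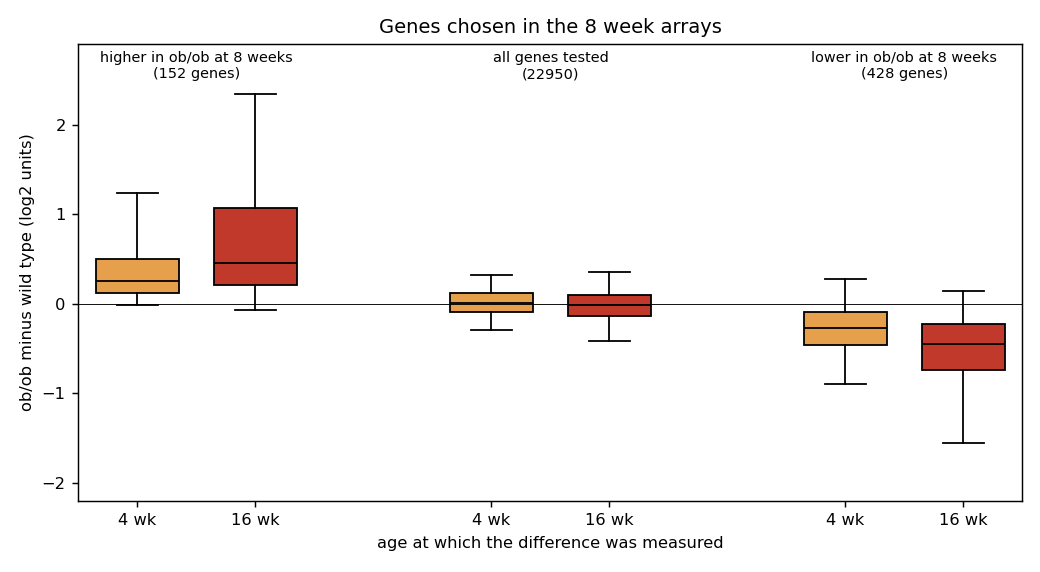
Genotype differences (log2 units) at 4 and 16 weeks of the genes called in the 8-week arrays and of all genes tested; boxes span the quartiles with the median as a line, and whiskers reach from the 5th to the 95th percentile. Medians of the 152 higher genes are 0.26 and 0.45, those of the 428 lower genes -0.27 and -0.45, and all genes centre near 0.

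The 10 positive increments with the smallest p, none past the threshold, were those of Slc25a25, Aldh1a1, Cyp21a1, Mlph, Ccn1, Dpysl3, Zyx, Pigz, Rtn4r and Clca3a1. Slc25a25 read 6.92, 7.73 and 7.75 in wild type and 7.85, 8.02 and 8.25 in ob/ob at 4 weeks. At 16 weeks it read 7.24, 7.05, 6.97 and 7.05 in wild type and 9.41, 9.996, 9.62 and 9.89 in ob/ob. The genotypes did not overlap at either age, but they lay close together at 4 weeks and far apart at 16. Its increment was 2.08 ± 0.28 (95% interval 1.48 to 2.68, adjusted p 0.0969), with differences of 0.57 ± 0.21 at 4 weeks and 2.65 ± 0.18 at 16 weeks (limma adjusted p 4.2e-05). In ob/ob it rose by 1.69 with age (limma adjusted p 0.00339), and the wild-type value was -0.39 (adjusted p 0.455). The 8-week difference was 1.17 (limma adjusted p 0.0479). This increment passed under array weights (adjusted p 0.0194), without ob/ob replicate 1 of 16 weeks (0.0467) and without wild-type replicate 1 of 4 weeks (0.00276).

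Aldh1a1, a retinaldehyde dehydrogenase that makes retinoic acid, rose with age in both genotypes. Wild type read 7.22, 6.69 and 7.26 at 4 weeks and 8.68, 9.04, 9.24 and 8.65 at 16 weeks, whereas ob/ob read 7.35, 7.33 and 7.40, then 10.93, 11.95, 10.94 and 11.001. All 4 ob/ob animals of 16 weeks were above all 4 wild-type animals. The age changes were 1.85 in wild type (limma adjusted p 0.00739) and 3.85 in ob/ob (1.19e-05). Its increment of 2.00 ± 0.34 had an adjusted p of 0.296, and 0.0441 under array weights.

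Ccn1 encodes a secreted matricellular protein that is induced by mechanical strain and by the YAP and TEAD regulators. At 4 weeks it read 10.16, 10.68 and 10.92 in wild type and 10.56, 10.62 and 10.57 in ob/ob, so the ob/ob values fell inside the wild-type range. At 16 weeks the wild-type values of 10.48, 10.34, 10.62 and 10.51 were all below the ob/ob values of 12.29, 12.39, 11.45 and 12.89. The difference went from 0.00 ± 0.28 to 1.77 ± 0.24 (limma adjusted p 0.0041 at 16 weeks), an increment of 1.77 ± 0.37 (adjusted p 0.722). Without ob/ob replicate 3 of 16 weeks the increment was 2.04 with an adjusted p of 0.0491. Ccn2, its relative formerly called connective tissue growth factor, read 9.28, 10.33 and 9.71 against 10.01, 10.07 and 10.82 at 4 weeks (wild type first) and 9.35, 10.26, 9.89 and 10.47 against 11.66, 12.33, 12.74 and 13.14 at 16 weeks. It separated the genotypes at 16 weeks by 2.47 ± 0.34 (limma adjusted p 0.0041), with an increment of 1.95 ± 0.52 (adjusted p 0.97). Ankrd1, a strain-induced muscle and injury gene, was 1.404 ± 0.30 higher at 16 weeks (limma adjusted p 0.0328) and Acta2, smooth muscle actin, was 1.31 ± 0.25 higher (0.0232). Their increments were 1.12 ± 0.45 and 0.76 ± 0.39 (limma adjusted p 0.97 for each). In the 24-week arrays Ccn1, Ccn2, Ankrd1 and Acta2 differed by -0.28, 0.22, -0.51 and -0.16. Without the 3 ob/ob arrays of low quality, which leaves 1 ob/ob animal, these were 1.41, 2.70, 1.49 and 1.57.

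Promoter stretches are shown for the members of this group with an entry in the promoter table used here because they were higher together at 16 weeks; the group was put together after its values were seen. Each line gives the 250 bases before the RefSeq start (assembly GRCm38.p6) on the gene's own strand, 5′ to 3′. Capitals mark GGAATG, letters bound by TEAD factors, or CATTCC, the same letters on the other strand. Ccn1 lies at chr3:145649986-145650235 (minus strand), Ankrd1 at chr19:36119845-36120094 (minus strand) and Acta2 at chr19:34255374-34255623 (minus strand).
Ccn1: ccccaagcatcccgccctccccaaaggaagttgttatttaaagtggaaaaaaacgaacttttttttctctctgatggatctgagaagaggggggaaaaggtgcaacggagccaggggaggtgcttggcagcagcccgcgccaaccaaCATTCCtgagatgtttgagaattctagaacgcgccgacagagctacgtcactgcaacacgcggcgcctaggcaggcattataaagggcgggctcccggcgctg
Ankrd1: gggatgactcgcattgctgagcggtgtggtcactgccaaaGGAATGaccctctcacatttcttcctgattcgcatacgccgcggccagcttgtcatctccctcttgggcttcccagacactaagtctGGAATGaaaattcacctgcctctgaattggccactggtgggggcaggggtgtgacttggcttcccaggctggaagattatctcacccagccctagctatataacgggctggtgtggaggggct
Acta2: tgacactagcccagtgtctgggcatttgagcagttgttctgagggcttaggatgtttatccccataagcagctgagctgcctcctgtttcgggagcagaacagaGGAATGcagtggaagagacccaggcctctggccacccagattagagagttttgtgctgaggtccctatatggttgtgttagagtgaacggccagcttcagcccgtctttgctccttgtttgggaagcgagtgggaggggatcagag
Ccn1 and Acta2 each hold 1 match and Ankrd1 holds 2. Among 32851 promoters of this length 12.6% hold at least 1. A match of letters is a description and says nothing about binding in these animals.

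Dpysl3, which bundles actin and steers growth cones, read 7.28 to 7.39 in all 6 animals of 4 weeks. At 16 weeks it read 7.44, 8.03, 7.60 and 7.50 in wild type and 8.48, 9.26, 8.67 and 9.15 in ob/ob, without overlap. That is a difference of 1.25 ± 0.17 (limma adjusted p 0.00376) and an increment of 1.22 ± 0.25 (0.722). Clca3a1, a calcium-activated chloride channel regulator, was already apart at 4 weeks: 7.51, 7.80 and 7.78 in wild type and 8.97, 9.31 and 9.79 in ob/ob. At 16 weeks wild type read 7.05, 6.66, 6.84 and 7.05 and ob/ob 9.52, 10.57, 9.83 and 10.54. Its 4-week difference of 1.66 ± 0.27 (unadjusted p 3.25e-05) and its 16-week difference of 3.21 ± 0.23 (limma adjusted p 4.2e-05) gave an increment of 1.55 ± 0.35 (0.912).

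Smaller increments came from Mlph (melanophilin, which links vesicles to myosin) at 0.93 ± 0.19, Zyx (zyxin, of focal adhesions) at 0.47 ± 0.10, Pigz (a mannosyltransferase of membrane anchors) at 0.65 ± 0.14 and Rtn4r (the Nogo receptor) at 0.58 ± 0.13. All 4 were higher in ob/ob at 16 weeks, with limma adjusted p between 0.0011 and 0.033. Of the 10 positive genes 9 passed at 16 weeks, where 0.841% of all genes were called higher. Between genotypes 1 overlapped at that age, a count not made over all genes. In the 8-week arrays 9 had a difference above 0, against 46.7% of all genes. Cyp21a1 was the exception in each of these counts. The 10 were chosen by an increment that uses the 16-week arrays, so the 16-week counts follow in part from the choice.

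**Figure D3:**
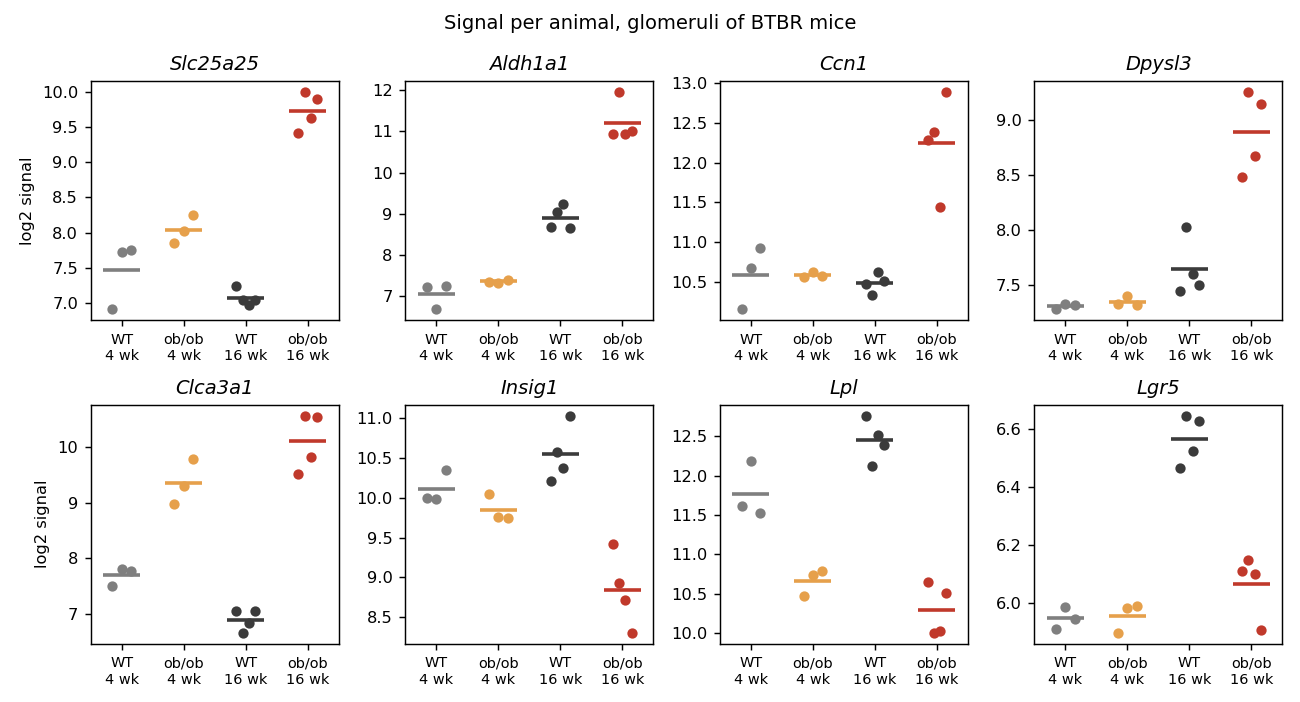
Deposited log2 signal of 8 genes in each of the 14 animals (points) with group means (bars), by genotype and age. In Slc25a25, Aldh1a1, Ccn1, Dpysl3 and Clca3a1 the 4 ob/ob animals of 16 weeks lie above all 4 wild-type animals, and in Insig1, Lpl and Lgr5 they lie below; none of these increments passed adjusted p 0.05.

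Cyp21a1, the adrenal steroid 21-hydroxylase, had an increment of 2.01 ± 0.41 (adjusted p 0.722) that came with high values in the wild-type animals of 4 weeks. These read 6.32, 7.34 and 8.05, whereas the ob/ob animals of that age read 5.57, 5.55 and 5.28 and the 8 animals of 16 weeks read 5.29 to 6.01. Other enzymes of the adrenal cortex had the same shape. Star, which brings cholesterol into mitochondria, read 5.60 to 7.47 in wild type at 4 weeks and 4.92 to 5.25 in the other 11 arrays. Cyp11a1 read 5.45 to 7.39 against 4.37 to 4.87, Cyp11b1 5.55 to 8.61 against 4.65 to 5.37, and Hsd3b1 6.92 to 8.02 against 5.68 to 6.24. So 5 of 9 measured adrenal markers, a list put together after the data were seen, were higher in every wild-type animal of 4 weeks than in any of the other 11, while Cyp11b2, Mc2r, Mrap and Nr5a1 overlapped. The mean of the 9 ran from 5.68 to 6.72 in those 3 animals and from 5.06 to 5.37 in the others. Outside the 14 arrays, wild-type replicate 2 of 8 weeks and wild-type replicate 4 of 24 weeks were also high, with means of 6.05 and 5.94, Cyp21a1 at 7.13 and 6.84 and Cyp11b1 at 6.65 and 6.45, so high values were not limited to 4 weeks. Without wild-type replicate 1 of 4 weeks the increments of Cyp21a1 and Star were 2.47 and 2.17, both with an adjusted p of 0.00483. Akr1c18, a steroid-reducing enzyme, read 6.86, 6.89 and 9.07 in the same animals and 5.23 to 6.68 in the rest. Its increment was 1.56 ± 0.58. Unlike the 5 markers, it also did not overlap between genotypes at 16 weeks, with a difference of -0.77 ± 0.38 (limma adjusted p 0.389). It differed by -0.87 in the 8-week arrays (limma adjusted p 0.00977) and by -1.24 in the 24-week arrays (0.00223). The 16-week differences of Cyp21a1, Star, Cyp11a1, Cyp11b1 and Hsd3b1 were 0.24, 0.09, 0.15, 0.15 and -0.12. The part of adrenal RNA in the increments of these genes was not tested. Fewer cells of a type cannot be told apart from less RNA per cell in whole preparations.

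**Figure D4:**
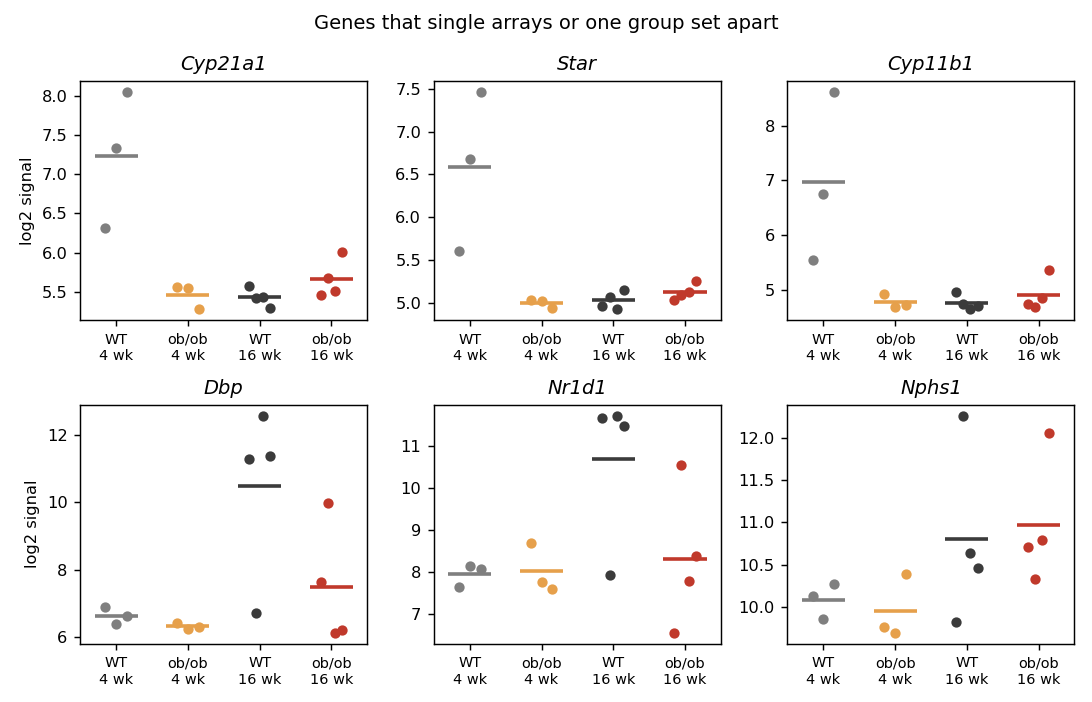
Deposited log2 signal per animal (points, bars are group means) of 3 adrenal cortex genes, the clock genes Dbp and Nr1d1, and the podocyte gene Nphs1. Cyp21a1, Star and Cyp11b1 are high in the 3 wild-type animals of 4 weeks; Dbp and Nr1d1 are low in wild-type replicate 2 of 16 weeks, and Nphs1 is high in it.

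The negative genes with signal well above background were Insig1, Lpl, Hoxd8 and Anp32a. Insig1, which holds the sterol sensor SCAP in the endoplasmic reticulum and is itself switched on by SREBP, read 9.999, 9.99 and 10.34 in wild type and 10.05, 9.76 and 9.75 in ob/ob at 4 weeks. At 16 weeks wild type read 10.21, 10.58, 10.37 and 11.04 and ob/ob 9.42, 8.93, 8.71 and 8.30. The groups overlapped at 4 weeks and were apart at 16, by -1.71 ± 0.22 (limma adjusted p 0.00336), with an increment of -1.45 ± 0.34 (0.912). Lpl, lipoprotein lipase, which frees fatty acids from circulating triglyceride, was lower in all ob/ob animals at both ages. It read 11.61, 12.18 and 11.52 against 10.48, 10.74 and 10.79 at 4 weeks, and 12.76, 12.12, 12.51 and 12.39 against 10.65, 10.01, 10.04 and 10.52 at 16 weeks. The 16-week difference was -2.14 ± 0.19 (limma adjusted p 0.00031) and the increment -1.04 ± 0.29 (0.97). Lpl also differed in the 8-week arrays, by -2.05 (limma adjusted p 0.00307).

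Lgr5, a receptor of progenitor cells that acts in Wnt signalling, rose with age in wild type by 0.62 (limma adjusted p 0.0074), and its value in ob/ob was 0.11 (0.574). It read 5.90 to 5.99 in all animals of 4 weeks, 6.47, 6.65, 6.52 and 6.63 in wild type at 16 weeks, and 6.11, 6.15, 6.10 and 5.91 in ob/ob. Those signals lie near the intron controls. Hoxd8, a positional transcription factor, was lower at 16 weeks by -0.70 ± 0.12 (limma adjusted p 0.0125) and at 8 weeks by -0.78 (0.0235), with a 4-week difference of 0.00. Of the 10 negative genes 4 passed at 16 weeks, namely Lgr5, Insig1, Hoxd8 and Lpl, where 0.863% of all genes were called lower. At that age 5 overlapped between genotypes, a count that likewise was not made over all genes. These 16-week counts too follow in part from the choice by increment. In the 8-week arrays 5 of the 10 had a difference below 0, against 53.3% of all genes. Teddm3, Bsph2, Taar8b, Klf17, Tnn and Lgr5 had means below 7 in every group. Anp32a, a histone chaperone of the nucleus, went from 0.34 at 4 weeks to -0.23 at 16 weeks.

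The kind of gene in either direction is given as counts, with no test. Among the 500 positive increments at an unadjusted p under 0.05, 83.4% were of protein-coding genes, and among the 576 negative ones 35.4%, against 65.8% of all genes tested. A mean below 6 in every group, at the level of the intron controls, was found for 16.4% of the positive and 30.4% of the negative genes, and for 30.2% of all. In the independent 8-week arrays the difference was above 0 for 57.2% of the positive genes and below 0 for 63.2% of the negative ones, where all genes gave 46.7% and 53.3%.

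Read as ageing, 297 genes changed from 4 to 16 weeks in ob/ob (1.29%; 177 up, 0.771%, and 120 down, 0.523%) and 189 in wild type (0.824%; 82 up, 0.357%, and 107 down, 0.466%; limma adjusted p under 0.05). The ob/ob count was 46, 67 and 9 without each ob/ob animal of 4 weeks in turn, 143 without ob/ob replicate 4 of 16 weeks, 177 without wild-type replicate 4 and 578 without wild-type replicate 2 of 16 weeks. The wild-type count was 29 to 98 without any 1 of wild-type replicates 1 to 3 of 4 weeks, wild-type replicates 1, 3 and 4 of 16 weeks or ob/ob replicate 3 of 4 weeks. The counts share the arrays of the increment and add no evidence to it.

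Several of the strongest 16-week differences already had the same sign at 4 weeks. Cdkn1a, the p21 inhibitor of the cell cycle, read 8.83, 10.28 and 8.96 in wild type and 10.59, 10.85 and 11.66 in ob/ob at 4 weeks, and 7.39, 8.91, 7.22 and 7.91 against 11.26, 10.85, 11.98 and 13.16 at 16 weeks. The groups did not overlap at either age. Its difference was 1.68 ± 0.59 and then 3.96 ± 0.51 (limma adjusted p 0.00336 at 16 weeks), an increment of 2.28 ± 0.78 (0.97). In wild type the age value was -1.501 and in ob/ob 0.78, and neither passed.

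Slc5a10, a sodium-coupled mannose and fructose carrier of the proximal tubule, read 11.60, 10.92 and 12.80 against 13.52, 12.71 and 13.01 at 4 weeks, where the groups overlapped. At 16 weeks 10.49, 9.06, 11.11 and 9.76 in wild type stood below 12.18, 14.96, 14.16 and 14.56 in ob/ob. That difference was 3.86 ± 0.59 (limma adjusted p 0.00685), and the increment 2.56 ± 0.91 (0.97). Agt, angiotensinogen, the precursor of angiotensin, read 8.41, 8.59 and 8.90 against 9.47, 10.28 and 9.45, then 8.23, 7.63, 8.28 and 7.95 against 10.09, 10.89, 10.38 and 11.78. Its genotypes were apart at both ages, by 1.10 ± 0.36 and 2.76 ± 0.31 (limma adjusted p 0.00139 at 16 weeks), with an increment of 1.66 ± 0.48 (0.97). Angptl4, a secreted inhibitor of lipoprotein lipase, differed by 1.81 ± 0.58 and 2.92 ± 0.50 (limma adjusted p 0.0124 at 16 weeks), and Scd1, the stearoyl-CoA desaturase, by -1.20 ± 0.40 and -2.24 ± 0.34 (0.00685).

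Vitamin D enzymes and androgen-linked genes had large differences and wide spreads. Cyp27b1, which makes active vitamin D, read 8.08 to 9.49 in the 3 wild-type animals against 10.66, 12.12 and 11.96 at 4 weeks, and 8.89, 6.72, 7.51 and 7.41 against 12.07, 14.04, 11.49 and 8.26 at 16 weeks. Replicate 4 of ob/ob fell inside the wild-type range. Its differences of 2.73 ± 1.06 and 3.83 ± 0.92 (limma adjusted p 0.0591 at 16 weeks) gave an increment of 1.11 ± 1.41, which was 0.25 without ob/ob replicate 2 of 16 weeks and 2.18 without ob/ob replicate 4. Cyp24a1, which breaks vitamin D down, had an increment of 1.77 ± 1.26, and 0.83 without wild-type replicate 1 of 4 weeks. Vdr, the vitamin D receptor, had 1.06 ± 0.30 (unadjusted p 0.0037). Kap, an androgen-regulated protein of the proximal tubule, read 17.32, 16.69 and 17.56 against 15.70, 15.04 and 14.67, and later 18.86, 16.38, 18.37 and 17.64 against 12.86, 15.96, 10.44 and 15.80. All ob/ob values were below all wild-type values at each age, but the difference of -4.05 ± 0.99 at 16 weeks had a limma adjusted p of 0.0621. Havcr1, the injury marker KIM-1, had differences of -1.11 ± 0.38 and -1.20 ± 0.33, and the sign of its increment of -0.08 ± 0.51 turned under array weights (0.09).

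Gene lists gave the shape of the increment across pathways and cell types. Of 30 lists 23 had a median increment above 0 and 7 below, in a range from -0.22 to 0.49. The median of all genes was -0.02, with 45.3% above 0 and 54.7% below. Protein-coding genes made up 65.8% of all genes, and their share differed between positive and negative increments, as given above. A median over protein-coding genes alone was not made, so all genes are an unlike baseline for the lists. The test of an increment was passed by 0 members of any list. Some genes sit in more than 1 list. Counts below of members at an unadjusted p under 0.05 stand beside 2.18% of all genes with a positive and 2.51% with a negative increment, and counts of members called at 16 weeks beside 0.841% higher and 0.863% lower.

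**Figure D5:**
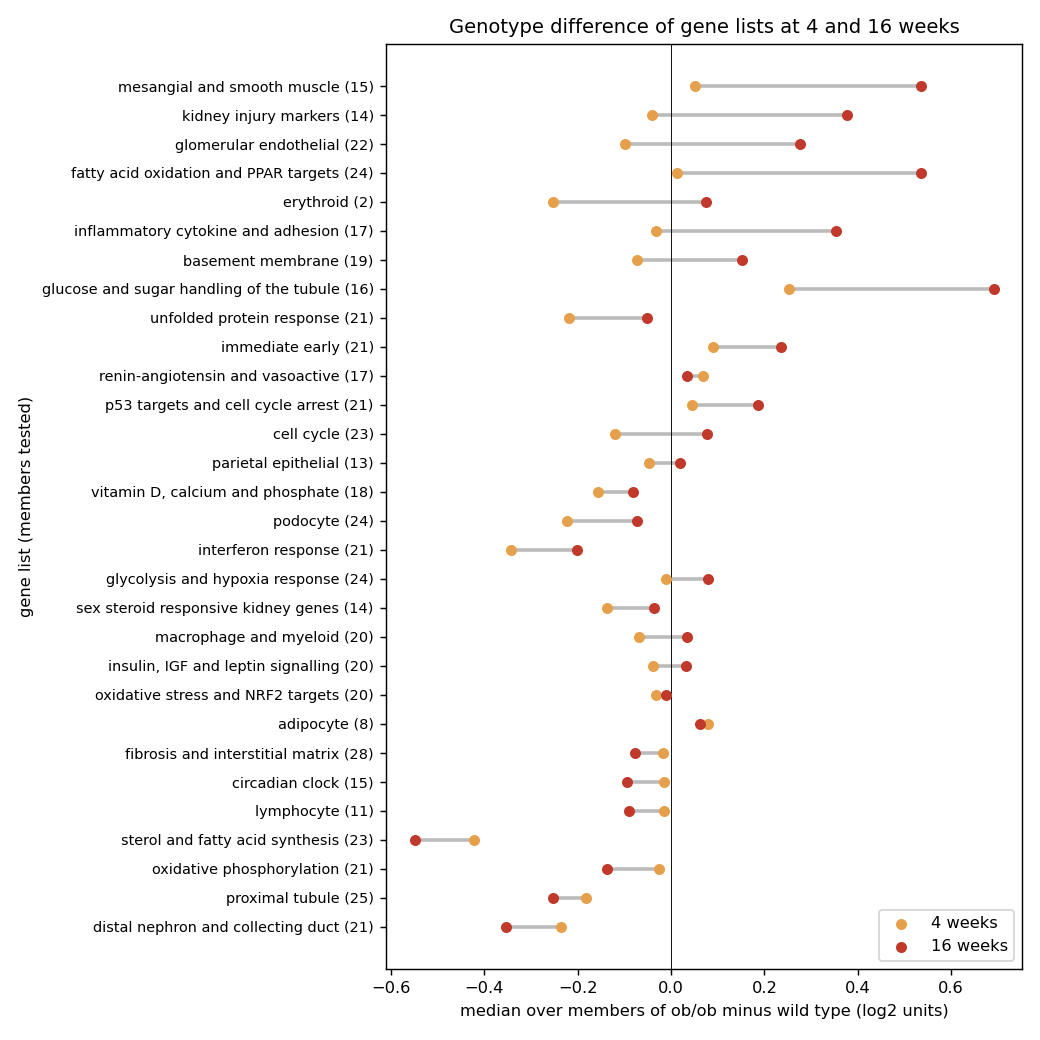
Median genotype difference (ob/ob minus wild type, log2 units) over the tested members of 30 gene lists at 4 weeks (orange) and 16 weeks (red), ordered by the median increment, with the number of members in brackets. Mesangial, kidney injury and fatty acid oxidation lists lie near 0 at 4 weeks and between 0.38 and 0.54 at 16 weeks, whereas sterol synthesis lies below 0 at both ages.

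Kidney injury markers had a median increment of 0.47, from -0.04 at 4 weeks to 0.38 at 16 weeks, with 12 of 14 members above 0. At an unadjusted p under 0.05 were 6 of 14, all positive, and 5 of 14 were higher at 16 weeks (limma adjusted p under 0.05): Krt8, Krt20, Cdkn1a, Ankrd1 and Cp. Krt8, a keratin of simple epithelium, read 9.31, 9.54 and 9.47 against 9.55, 9.51 and 9.85 at 4 weeks and 8.87, 8.37, 9.47 and 9.16 against 9.78, 10.74, 10.08 and 9.98 at 16 weeks, a difference of 1.18 ± 0.23 (0.0238). Krt20, a keratin of injured tubule, was higher by 0.76 ± 0.10 (limma adjusted p 0.0041), with signals near or below the intron controls in every group. Lcn2, the secreted iron-siderophore binder NGAL, rose with age in ob/ob by 1.14 (limma adjusted p 0.0274), and its increment was 0.92 ± 0.30. The list mean per array was 8.39 to 9.03 in ob/ob and 7.87 to 8.08 in wild type at 16 weeks, without overlap, and 7.59 to 7.88 in all animals of 4 weeks. Leaving out single arrays gave list medians of 0.38 to 0.57. In the 8-week arrays the median difference of the list was -0.035. The injury marker Havcr1, given above, was lower in ob/ob, by -1.11 ± 0.38 at 4 weeks, -1.57 at 8 weeks and -1.20 ± 0.33 at 16 weeks.

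Fatty acid oxidation and PPAR target genes, which the nuclear receptor PPAR-alpha switches on in fasting and under lipid load, had a median increment of 0.40. Of 24 members 19 were above 0, 6 had an unadjusted p under 0.05 and 7 were higher at 16 weeks: Ehhadh, Cyp4a14, Angptl4, Pdk4, Plin2, Vnn1 and Acot1. Ehhadh, an enzyme of peroxisomal oxidation, read 14.14, 13.40 and 14.17 against 13.74, 13.81 and 13.95 at 4 weeks and 12.88, 13.29, 13.73 and 12.55 against 14.15, 14.40, 14.44 and 14.16 at 16 weeks. Its difference was -0.07 ± 0.26 and then 1.17 ± 0.23 (limma adjusted p 0.0226), an increment of 1.25 ± 0.35 (0.97). Acot1, which splits acyl-CoA, fell with age in wild type by 1.42 (limma adjusted p 0.0359), and the ob/ob value was -0.03. Plin2, a coat protein of lipid droplets, was 1.34 ± 0.23 higher at 16 weeks (limma adjusted p 0.0134) and 0.14 ± 0.27 at 4 weeks. Cyp4a14, a fatty acid hydroxylase, was 2.17 ± 0.28 higher (limma adjusted p 0.00345) after 0.84 ± 0.33. The median was 0.25 without wild-type replicate 2 of 16 weeks, the lowest with any single array left out.

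Inflammatory cytokines and adhesion molecules had a median increment of 0.28, with 15 of 17 members above 0 and 6 of 17 at an unadjusted p under 0.05. Higher at 16 weeks were 3: Cxcl1, Icam1 and Tnfrsf12a. Icam1, the leukocyte adhesion molecule, read 6.96, 6.84 and 7.33 against 7.15, 7.38 and 7.01 at 4 weeks and 7.24, 7.26, 7.38 and 7.37 against 7.88, 8.36, 7.86 and 8.54 at 16 weeks, a difference of 0.85 ± 0.16 (0.0181). Tnfrsf12a, the TWEAK receptor, was 1.44 ± 0.31 higher (limma adjusted p 0.033) with an increment of 1.504 ± 0.47. Macrophage and myeloid genes had a median increment of 0.03 and lymphocyte genes -0.07, with 0 of 20 and 0 of 11 members at an unadjusted p under 0.05. The inflammatory median was 0.19 without ob/ob replicate 2 of 16 weeks and 0.43 without ob/ob replicate 2 of 4 weeks. Its median difference in the 8-week arrays was -0.035, and that of the fatty acid oxidation list was 0.38.

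Mesangial and smooth muscle genes had the highest list median, 0.49, with 13 of 15 members above 0. Only Cspg4, the NG2 proteoglycan, reached an unadjusted p under 0.05 (increment 0.49 ± 0.19), and only Acta2 passed at 16 weeks. Itga8, the mesangial integrin, read 11.92, 12.15 and 12.39 against 11.84, 12.12 and 12.12 at 4 weeks and 11.33, 14.24, 12.33 and 11.81 against 13.40, 13.10, 13.98 and 15.71 at 16 weeks. The high wild-type value is replicate 2 and the highest ob/ob value replicate 4, the arrays that also stood apart on podocyte genes, and the increment was 1.74 ± 0.91. Without both arrays it was 1.79, and the list median 0.45.

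Endothelial genes had a median increment of 0.41 (20 of 22 above 0), and the only member called at 16 weeks was Lpl, which was lower in ob/ob. The endothelial median was 0.20 without ob/ob replicate 4 of 16 weeks and 0.64 without wild-type replicate 2. Median differences in the 8-week arrays were -0.03 for the endothelial list, 0.43 for the mesangial list and 0.12 for the basement membrane list. Basement membrane genes had 0.25 (16 of 19 above 0; 0 called at 16 weeks). Col4a1, a collagen of all basement membranes, had an increment of 0.97 ± 0.61, and Col4a3, of the mature glomerular membrane, 0.50 ± 0.47. Without ob/ob replicate 4 of 16 weeks these were 0.48 and 0.27, and without wild-type replicate 2 that of Col4a3 was 0.86. The basement membrane median was 0.15 without wild-type replicate 2 of 4 weeks and 0.42 without wild-type replicate 1.

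Podocyte genes had a median increment of 0.11, with 0 of 24 members at an unadjusted p under 0.05 in either direction and 0 called at 16 weeks. The median difference was -0.22 at 4 weeks, -0.30 in the 8-week arrays and -0.07 at 16 weeks. At 4 weeks 23 of 24 members were below 0, against 48.0% of all genes, and at 16 weeks 13 were. These genes are not independent of each other and no test was made over the list. Nphs1 had an increment of 0.31 ± 0.69 (95% interval -1.19 to 1.81) and Wt1, the podocyte transcription factor, 0.10 ± 0.61 (-1.22 to 1.43), so gains and losses of over 1 unit both lie within the intervals. Both signs turned without ob/ob replicate 4 (-0.05 and -0.07). The podocyte median ran from -0.04 without wild-type replicate 1 of 16 weeks to 0.40 without wild-type replicate 2.

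Sterol and fatty acid synthesis was the list with most members lower at 16 weeks, 10 of 23, among them Cyp51, Idi1, Fdps, Lss and Srebf2 of the cholesterol pathway. It was low at both ages, with median differences of -0.42 at 4 weeks and -0.55 at 16 weeks. At 4 weeks 22 of 23 members were below 0, against 48.0% of all genes. The median increment was -0.13, and 0.01 without wild-type replicate 1 of 4 weeks. Stard4, a cholesterol carrier, had a difference of -1.05 ± 0.21 at 16 weeks (limma adjusted p 0.0238) and an increment of -0.71 ± 0.31.

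Distal nephron and proximal tubule lists had medians below 0, whereas the list of sugar handling in the tubule had a median increment of 0.22 (13 of 16 above 0). Its median difference was 0.25 at 4 weeks and 0.69 at 16 weeks, and 3 of 16 members were higher at 16 weeks, namely Slc5a10, Tkfc and Pck1. That median increment was -0.01 without ob/ob replicate 2 of 16 weeks, 0.02 without wild-type replicate 2 and 0.46 without ob/ob replicate 1. The distal nephron list had a median increment of -0.22 (15 of 21 below 0), and Umod, Slc12a1 and Egf were lower at 16 weeks. Egf, the growth factor made in the thick limb and distal tubule, read 16.63, 17.36 and 16.76 against 16.52, 16.31 and 16.43 at 4 weeks and 17.35, 16.81, 17.35 and 17.49 against 15.57, 16.23, 15.05 and 14.94 at 16 weeks. Its difference of -1.80 ± 0.26 (limma adjusted p 0.00545) followed one of -0.50 ± 0.30, with an increment of -1.30 ± 0.39 (0.97). Slc12a1, the salt carrier blocked by loop diuretics, was -1.35 ± 0.28 (0.0312) after -0.27 ± 0.32. These values lie around 16 and reach into the stretched range, and the distal list median was 0.08 without wild-type replicate 1 of 4 weeks, 0.05 without wild-type replicate 4 of 16 weeks and -0.52 without wild-type replicate 2 of 4 weeks. In the 8-week arrays the median difference of the distal list was -1.21. Slc13a1, a sulphate carrier of the proximal tubule, went the other way, with -0.17 ± 0.25 at 4 weeks and 1.07 ± 0.22 at 16 weeks (limma adjusted p 0.0285), although the proximal tubule median was -0.16. The proximal tubule list mean was lowest in ob/ob replicate 4 of 16 weeks, at 14.85 against 15.53 to 16.15 in the other 13 arrays, and with that mean as a covariate 0 genes passed the test of an increment (limma; 1351 at an unadjusted p under 0.05).

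Eda2r, a p53-induced death receptor, read 5.20 to 5.46 in all animals of 4 weeks and 5.24 to 5.35 in wild type at 16 weeks, where ob/ob read 5.73, 6.34, 6.05 and 6.24. All of these signals lie near or below the intron controls. Its difference was 0.79 ± 0.11 (limma adjusted p 0.00612), its increment 0.74 ± 0.18 (0.912), and at 8 weeks it differed by 0.67 (0.00776). The p53 list had a median increment of 0.17, and 5 of 21 members were higher at 16 weeks: Cdkn1a, Ccng1, Btg2, Zmat3 and Eda2r. Adm, adrenomedullin, a hypoxia-induced vasodilator peptide, was 2.45 ± 0.39 higher at 16 weeks (limma adjusted p 0.00871) with an increment of 1.66 ± 0.60. P4ha2, a collagen prolyl hydroxylase, had 0.60 ± 0.12 (0.0257) after -0.01 ± 0.14. In the hypoxia and glycolysis list 5 of 24 were higher at 16 weeks, and the median increment was 0.07. Oxidative phosphorylation had -0.13, with 19 of 21 members below 0 and 0 at an unadjusted p under 0.05. Interferon response genes had differences of -0.34 at 4 weeks and -0.20 at 16 weeks.

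Clock genes were widely spread within the 16-week groups. Dbp, an output of the clock, read 11.29, 12.57 and 11.39 in wild-type replicates 1, 3 and 4 of 16 weeks, 6.71 in replicate 2, 6.26 to 6.90 in all animals of 4 weeks, and 7.63, 9.99, 6.13 and 6.22 in ob/ob at 16 weeks. Nr1d1, the clock repressor REV-ERB-alpha, read 11.68, 7.92, 11.73 and 11.49 against 6.55, 10.54, 7.78 and 8.38 at 16 weeks and 7.60 to 8.69 at 4 weeks. The increments of -2.69 ± 1.64 and -2.45 ± 1.33 had adjusted p of 0.97, and the labels give no hour of collection. Wild-type replicate 2 thus differed from its group in clock as well as podocyte genes.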

How the data were processed

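RNA of isolated glomeruli was measured on Affymetrix arrays, each taken as 1 animal. The authors deposited log2 values made by RMA in Affymetrix Expression Console 1.4, per the submitters' processing notes. Further settings: not given in the sources used here. In total the matrix holds 72688 probe sets. Of these, 30604 carry 1 gene symbol and 2146 several; the others and those with several are unnamed here. The brightest probe set stood for each of 355 genes that had several. A gene entered the fit if it reached log2 5 in at least 3 of the 14 arrays. That left 22950 genes, 346 of them with values identical to those of another gene.

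The 4 group means were fitted over the 14 arrays with limma 3.58.1 in R 4.3.3 (lmFit, eBayes; residual df 10, prior df 3.01), and p-values were adjusted over all genes by the Benjamini-Hochberg method, with 0.05 as threshold. The 8-week and 24-week arrays were fitted by themselves. Alternatives changed the filter, scaling, weights, arrays, probe sets, covariates and replicate block. The labels number the arrays of each group as replicates, and each array was taken as a separate animal.

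The comparison, the gene lists and the naming rule were chosen with earlier results of these data known. Named genes were the 10 smallest p in each direction, leaving out predicted and large-family genes, up to 4 members of each list, and genes set by name (Lep, Lepr, Nphs1, Wt1, Col4a1, Col4a3, Havcr1, Slc34a1, Cdkn1a, Akr1c18, Slc5a10, Cyp27b1, Cyp24a1, Kap, Angptl4, Agt and Scd1). The adrenal list, Ankrd1 and the members named only within a count were added after their values were seen. Promoter sequences are those of RefSeq, assembly GRCm38.p6; Ccn2 is named only.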

Additional observations from a re-analysis of the deposited data

Results flagged for a closer look

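Dixon's test on groups of 4 animals set 14 values apart from their group, in 202 groups tested; chance sets about 1 in 20 groups apart. Wild-type replicate 2 of 16 weeks gave 5 of the 14. Its Col4a1 signal was 9.92 against 9.04 to 9.09 in the other wild-type animals, its Col4a3 signal 12.67 against 11.08 to 11.33, its Lepr signal 7.005 against 7.62 to 7.66, its Nr1d1 signal 7.92 against 11.49 to 11.73, and its macrophage list mean 6.86 against 6.40 to 6.46. Without this animal 718 genes passed at 16 weeks, and 1 passed the test of an increment.

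In ob/ob at 16 weeks, replicate 4 had an endothelial list mean of 11.78 against 10.93 to 10.96 and a Slc34a1 signal of 18.79 against 19.33 to 19.43. Replicate 2 had Aldh1a1 at 11.95 against 10.930 to 11.001, Tnn at 6.05 against 5.65 to 5.71, and a vitamin D list mean of 12.34 against 11.77 to 11.80. Replicate 1 had Acot1 at 10.72 against 11.11 to 11.12 and Adm at 11.18 against 12.41 to 12.44.

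In wild type at 16 weeks, replicate 3 had Teddm3 at 5.23 against 5.49 to 5.52, and replicate 1 had Cyp24a1 at 8.82 against 10.21 to 10.26.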

How the results depend on the processing

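Of 69 named genes, 65 kept the sign of their increment under every alternative run on them (26 or 27 each). The increment of Havcr1 turned under array weights (0.0947) and that of Wt1 with the proximal tubule covariate (-0.0829); with single arrays left out, Havcr1 ran from -0.321 to 0.146, Wt1 from -0.194 to 0.603, Nphs1 from -0.0528 to 0.796 and Slc34a1 from -0.203 to 0.00786. The number of increments called was 0 with all 30 arrays, the 22 arrays up to 16 weeks, no filter, a filter at log2 6, cyclic loess, trend and robust settings, mean probe sets, and either covariate. It was 4 with array weights, 0 to 4 with single arrays left out, and 1 without both ob/ob replicate 4 and wild-type replicate 2 of 16 weeks, an alternative chosen after seeing the data. With the replicate block 0 increments were called, and the 16-week count was 96, the 8-week count 282 and the 24-week count 2271; the block could not be fitted to the age changes, since numbers lie within ages. The deviations of same-numbered animals correlated at -0.346 to 0.582 over the 4 ages, and not every pair was above 0.1 at any age, so the numbers were not taken to pair them.

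Genes called at 16 weeks numbered 722 with 22 arrays, 2592 with array weights, 164 with a difference of at least 1, and 156 to 718 with single arrays left out. At 4 weeks 1 gene was called with all 30 arrays and 1 without both arrays, and 0 to 5 with single arrays left out. Age changes in ob/ob numbered 588 with 22 arrays, 547 with cyclic loess, 1289 with weights, 119 with a size of at least 1, 726 with the quality covariate and 9 to 578 with single arrays left out. In wild type they numbered 324, 338, 1355, 82, 406, 337 with the proximal tubule covariate, 321 without both arrays, and 29 to 246. At 8 weeks 212 to 755 genes were called with single arrays left out. At 24 weeks 2182 were called, 6268 with all 30 arrays in the fit, 458 to 6875 with single arrays left out and 37 without 3 low-quality ob/ob arrays, which leaves 1 ob/ob animal, assumed to vary like the wild type. The causes were not tested. No median increment of a list changed sign under cyclic loess except that of fibrosis (-0.012 and 0.005). Depth in the sense of signal limits the weak genes, whose values lie at the intron controls.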

Other observations

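Genes of the leading group were looked up in the 24-week arrays, which the 14-array fit does not use. Over all genes the median 24-week difference was -0.04, with 1.62% called higher and 7.89% lower, and the signs of all genes were not counted. Of the 10 positive genes 7 had a 24-week difference above 0, and of the 10 negative genes 7 had one below 0. Without 3 ob/ob arrays of low quality these were 9 and 8, but that leaves 1 ob/ob animal, replicate 3, against 4 wild-type animals. Slc25a25 differed by 1.66 with all 24-week arrays and by 2.78 without those 3, Aldh1a1 by 1.80 and 2.30, Clca3a1 by 2.85 and 3.22, Lpl by -2.36 and -2.10, and Insig1 by -1.74 and -1.94. Ccn1 and Dpysl3 had -0.28 and -0.04 with all arrays, and 1.41 and 0.67 in the 1 ob/ob animal left without the 3.

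Cyp4a12a, a fatty acid hydroxylase that androgens raise in male kidney, rose with age in both genotypes of these female mice, by 1.21 in wild type (limma adjusted p 0.0417) and by 2.53 in ob/ob (0.00102). At 16 weeks it read 7.98, 7.37, 8.32 and 8.06 in wild type and 10.27, 9.95, 9.33 and 9.30 in ob/ob, without overlap, a difference of 1.78 ± 0.23 (limma adjusted p 0.00336). At 8 weeks its difference was -0.01.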
